A study of Oryctolagus cuniculus with 12 samples.

Results

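Matrix metalloproteinases (MMPs) and tissue inhibitors of metalloproteinases (TIMPs) were followed in the aorta of rabbits with a coarctation, a narrowing of the vessel. The genes were taken by name, with earlier results of these data known: MMP1, MMP2, MMP3, MMP9, MMP12, MMP13, MMP14, TIMP1, TIMP2 and TIMP4. Of these 10 genes, 9 had at least 1 probe on the array, out of 1264 gene symbols that could be matched to a probe, and together they held 24 probes. No probe was matched to TIMP2.

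The animals were male New Zealand white rabbits, and a ring of 4 mm was cut from the thoracic aorta at 32 weeks of age. CoA rabbits had received a permanent silk suture around the descending aorta at about 10 weeks of age, which imposed a pressure gradient of 20 mmHg. Corrected rabbits had received a degradable Vicryl suture with the same gradient, and once it dissolved, the diameter returned close to normal with a modest narrowing left. Control rabbits were not operated on, and there was no sham group, so in the comparisons with Control the operation and the coarctation cannot be told apart. The ring lay upstream of the coarctation, and each group held 4 rabbits with 1 array each. The groups were compared in pairs, CoA or Corrected vs Control and the operated groups with each other, to ask which transcripts differ under a lasting coarctation, which differ after its correction, and which differ between these states.

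MMPs are zinc-dependent proteases that are made as inactive proenzymes and, once activated, cleave collagens, elastin and other proteins of the extracellular matrix. TIMPs bind the active site of MMPs and block it, so the balance of both families helps to set how fast the matrix of the arterial wall turns over. In arteries, smooth muscle cells and fibroblasts make MMP2 constitutively, whereas MMP1, MMP3, MMP9 and MMP12 are known as enzymes that cytokines, injury or leukocytes bring in. The array measures RNA and not the activation or inhibition of the enzymes.

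Among the genes that could be tested, MMP1 was lower and TIMP1 was higher in both operated groups than in Control, by 2.08-fold to 2.56-fold. TIMP4 was 8.06-fold lower in CoA than in Control. MMP2, by its brightest probe, and MMP9 passed the criterion in 0 of the 3 comparisons. A gene was called when it differed by more than 2-fold with an unadjusted p under 0.05 in limma, the criterion the study used for its volcano plots. Of the 5 genes tested, 3 were called in CoA vs Control (1 higher, 2 lower), 2 in Corrected vs Control (1 higher, 1 lower) and 0 in CoA vs Corrected. With limma's p adjusted by Benjamini-Hochberg across the 27283 probes tested, 0 probes of the whole array stayed under 0.05 in any comparison. The lowest adjusted p of the 5 genes was 0.258 in CoA vs Control, 0.485 in Corrected vs Control and 1.00 in CoA vs Corrected.

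The same criterion over the whole array called 8.81% of the tested probes in CoA vs Control, 5.39% in Corrected vs Control and 2.77% in CoA vs Corrected. In CoA vs Control, 3.59% of probes were called higher and 5.22% lower, and in Corrected vs Control 2.41% and 2.98%. An unadjusted p under 0.05 alone was reached by 3877, 2278 and 1175 probes in the 3 comparisons. Over all tested probes in CoA vs Control, 979 were called higher and 1425 lower with quantile normalization, against 1530 higher and 1221 lower when each array was scaled to its 75th percentile. That scaling moved the median log2 fold change of all probes from 0.06 to 0.22 in CoA vs Control and from 0.03 to 0.13 in Corrected vs Control.

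The arrays differed in ways that bear on these values. Between 69.7% and 77.7% of the spots of a Control array were flagged well above background, between 55.8% and 69.7% of a CoA array and between 61.8% and 68.5% of Corrected replicates 1, 2 and 4. For Corrected replicate 3 the share was 45.6%, and this array was left out of the comparisons because its description says that the study excluded it. By the scan start in the file headers, Control replicate 3 was scanned alone on another day, and all CoA arrays were scanned together and apart from the other groups, so CoA and scan cannot be told apart. Only scan 3 held more than 1 group, with Control replicates 1, 2 and 4 and Corrected replicate 2. Control replicates 3 and 4 were nearly alike, with a median absolute log2 difference of 0.13 and a largest one of 0.78 over the tested probes of these genes. The smooth muscle markers ACTA2 and MYH11 were detected on all 12 arrays, and ACTA2 lay between 14.47 and 16.40 on the log2 scale on the arrays of the comparisons. Among the endothelial genes, SELE, VCAM1, THBD and ACE were detected on all 12 arrays, NOS3 on 9 and the receptor KDR on 2. Of the genes listed for the tissue check, 0 of 3 fibroblast and 0 of 5 endothelial genes tested were called in any comparison, and 0 of 6 B cell genes could be matched to a probe. TPM2, 1 of 5 smooth muscle genes, was called higher in Corrected vs Control. Of 6 skeletal muscle genes, 1 was called higher in CoA and 2 in Corrected against Control, and 2 were called lower in CoA vs Corrected. Over all tested probes, 3.59% and 2.41% were called higher against Control, and 363 of 27283 lower in CoA vs Corrected. CKM was at 13.28 on CoA replicate 2 and at 3.87, 4.79 and 4.71 on CoA replicates 1, 3 and 4. TNNC2 was at 15.07 there and at 11.21, 11.45 and 10.53 on the others. MYH1, TNNI2 and RYR1 were not highest on CoA replicate 2 among the CoA arrays. Among 4 housekeeping genes GAPDH was called lower in CoA vs Control, at -1.41, and was at -0.96 without a call when arrays were scaled to the 75th percentile. It stayed called at -1.37 with quantile normalization over 11 arrays and at -1.58 with normexp.

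All levels below are log2 normalized signals on each array, given in the order of the replicate numbers, and a gene is represented by its brightest probe unless another is named. Signals of different probes do not compare transcript amounts, so no gene is called more or less abundant than another. A lower signal in a ring can mean fewer cells of a type or less RNA per cell, and the array cannot tell these apart. A probe was tested when it was detected on at least 8 of the 12 arrays. This held for 10 of the 24 probes, which belong to MMP1, MMP2, MMP9, TIMP1 and TIMP4. The other 14 probes were not tested, and 7 of them were detected on 0 arrays.

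**Figure D1:**
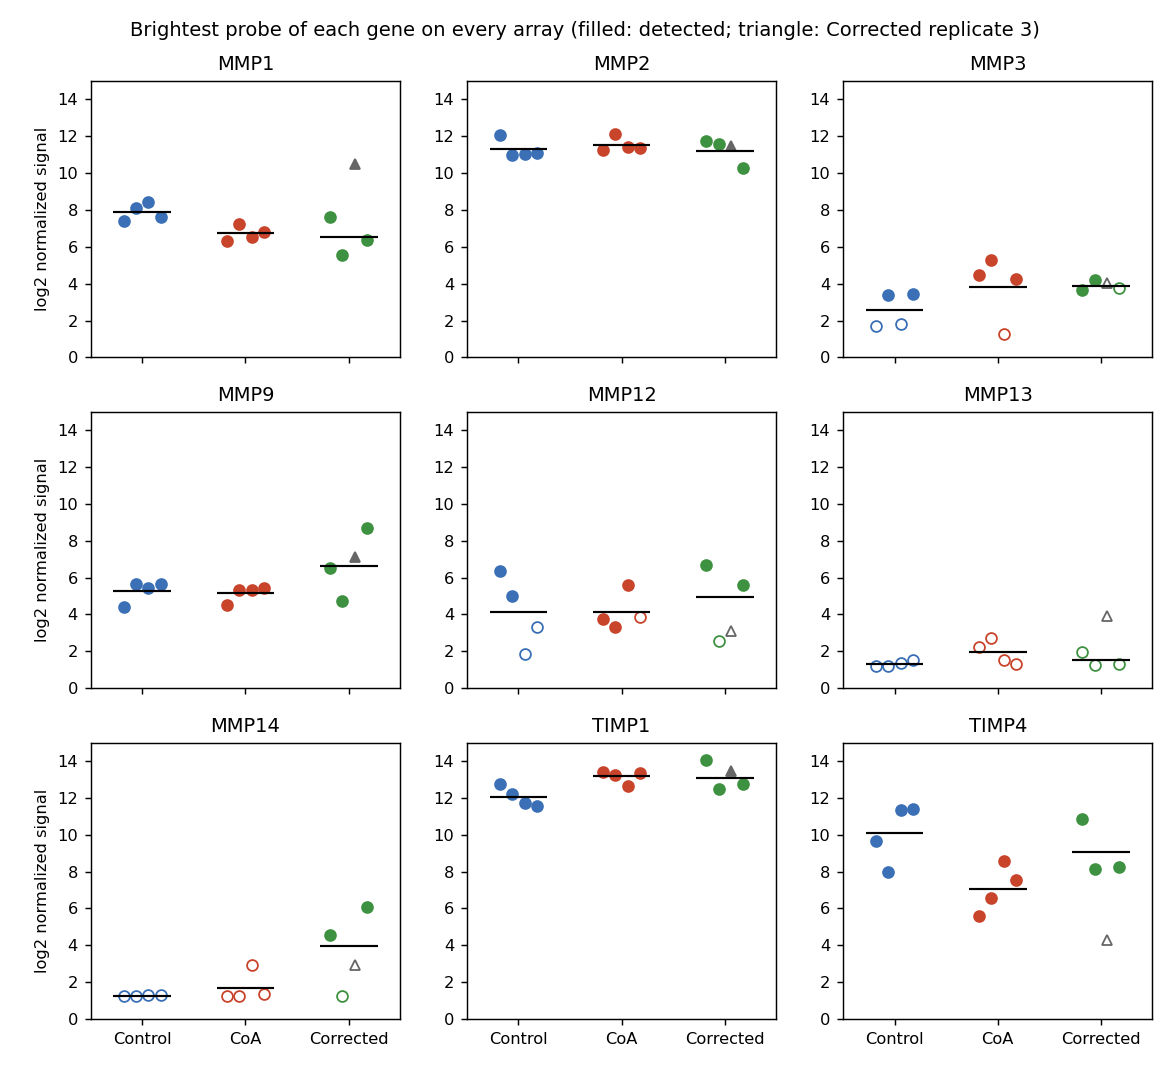
Log2 normalized signal of the brightest probe of each gene (y axis) on every array, by group (x axis); filled symbols mark detection, black bars the mean of the arrays in the comparisons, and grey triangles Corrected replicate 3. MMP1 lay at 7.39 or higher in Control and at 7.25 or lower in CoA, and the mean of TIMP4 was lowest in CoA, while MMP13 was detected on 0 arrays.

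Among the collagenases, which cleave the triple helix of fibrillar collagen, MMP1 was measured and MMP13 was not detected. MMP1 stood at 7.39, 8.08, 8.42 and 7.63 in Control. In CoA it stood at 6.33, 7.25, 6.55 and 6.80. Every CoA value was below every Control value, although the highest CoA and the lowest Control array were only a small step apart. The log2 fold change was -1.15 (95% interval -2.09 to -0.21), with p = 0.0209 and an adjusted p of 0.299 in limma and an exact permutation p of 0.0286. The latter, from the arrays alone, is the smallest that 4 against 4 arrays can give. Among all tested probes, 10.2% showed no overlap between CoA and Control, and MMP1 was the 1 gene of the 5 that did so.

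MMP1 in Corrected replicates 1, 2 and 4 stood at 7.64, 5.58 and 6.35. Replicate 1 reached the Control range and replicates 2 and 4 lay below all Control arrays. The log2 fold change against Control was -1.36 (95% interval -2.37 to -0.34), with p = 0.0133 and an adjusted p of 0.485 in limma and an exact permutation p of 0.0857. Of the 5 genes, 0 were without overlap in Corrected vs Control, as against 8.84% of all tested probes. Against Corrected, MMP1 in CoA differed by 0.21 on the log2 scale (95% interval -0.81 to 1.22), an interval that leaves room for a 2-fold difference upwards. The excluded array, Corrected replicate 3, had 10.51, above every other array, and with it in the model the log2 fold change of Corrected vs Control was -0.36.

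The calls of MMP1 depended on single arrays and on the processing. Leaving out Control replicate 3 gave a log2 fold change of -0.97 in CoA vs Control, leaving out CoA replicate 1 gave -1.01, and each ended the call. Leaving out Corrected replicate 2 gave -0.89 in Corrected vs Control and ended that call. The call in CoA vs Control was also lost with all 12 arrays, at an unchanged -1.15, with normexp, at -0.78, and with scan as a random block, at -0.98. That in Corrected vs Control was also lost with all 12 arrays, at -0.36, with array weights, at -1.11, with normexp, at -0.83, and without moderation of the variances, at -1.36. Within scan 3, the lone Corrected array (replicate 2) differed by -2.12 on the log2 scale from the mean of the 3 Control arrays. That array had the lowest MMP1 of all, so the direction there was given by this 1 array. The other MMP1 probes were near background, 1 of them detected on 6 arrays and 1 on 1 array, and were not tested. The mean of the former was 2.96 in Control, 3.37 in CoA and 3.81 in Corrected, and that of the latter 2.28, 1.65 and 1.32. With the mean over the 3 probes in place of the brightest, the log2 fold change fell short of the criterion at -0.46 in CoA and -0.49 in Corrected.

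T cell markers are given beside MMP1 because CD5 was also called lower in both operated groups. That choice came from these same data, so the shared direction of CD5 and MMP1 is a description only. The adipocyte gene PPARG was called lower in both operated groups as well. Of the 10 T cell genes listed, 5 had a probe and 1, the surface glycoprotein CD5, was detected on enough arrays to be tested. The log2 of their summed signal was 8.69 to 8.99 in Control, 6.45 to 8.78 in CoA and 6.21 to 7.20 in Corrected. CD5 was the brightest of the 5 on every array of the comparisons, so the sum in part repeats CD5. CD5 had a log2 fold change against Control of -1.27 in CoA and -2.41 in Corrected. CD3E and CD247, detected on 6 and 7 of the 12 arrays, were at -2.46 and -2.19 in CoA and at -3.20 and -2.45 in Corrected. CD4 and CD28, each detected on 7 of the 12 arrays, did not follow. They were at 0.29 and 0.37 in CoA and at -0.12 and 0.34 in Corrected. The part of T cells in the MMP1 result was not tested.

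MMP13, the other collagenase, had 3 probes, and all were detected on 0 arrays. Its brightest probe lay between 1.2 and 2.70 on the 11 arrays. MMP1, MMP3, MMP12 and MMP13 follow each other in that order on 1 chromosome in the RefSeq annotation of assembly mOryCun1.1, with 2 other entries between MMP12 and MMP13. Of these 4 genes only MMP1 was detected on all 12 arrays.

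Among the gelatinases, which digest denatured collagen and basement membrane collagen, MMP2 was detected on every array and its 6 probes gave different answers. The brightest probe read 12.08, 10.96, 11.02 and 11.11 in Control. It read 11.24, 12.14, 11.41 and 11.35 in CoA. Its values in Corrected replicates 1, 2 and 4 were 11.77, 11.60 and 10.27. The 3 groups overlapped, and no group stood apart by this probe. Its log2 fold change was 0.24 (95% interval -0.63 to 1.11) in CoA vs Control, -0.08 (-1.03 to 0.86) in Corrected vs Control and 0.33 (-0.61 to 1.27) in CoA vs Corrected. The sign in Corrected vs Control turned to 0.01 when arrays were scaled to the 75th percentile.

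The 5 dimmer MMP2 probes lay much nearer to the background, between 3.06 and 8.01 on the 11 arrays. The brightest of these 5 read 8.01, 5.14, 5.74 and 5.72 in Control and 5.07, 4.22, 5.43 and 4.86 in CoA. In Corrected replicates 1, 2 and 4 it read 7.0, 6.27 and 4.06. Control replicate 1 was the highest array for each of the 5, and Corrected replicate 4 was the lowest for 4 of them and CoA replicate 2 for 1. Their log2 fold changes in CoA vs Control ran from -1.36 to -1.17, with p from 0.103 to 0.162 and adjusted p from 0.431 to 0.50 in limma, so they were more than 2-fold lower without passing the test. Against Control in Corrected, they ran from -0.51 to -0.28.

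Over the 11 arrays the dimmer probes followed each other, with Pearson's r of 0.961 to 0.996, and followed the brightest probe less closely, with r of 0.453 to 0.561. These probes share the gene and the arrays, so the correlations describe the probes and are no replicates of the gene. With the mean over all 6 probes, the log2 fold change of MMP2 was -1.0 in CoA vs Control in place of 0.24. The direction of MMP2 in CoA was therefore set by the choice of probe. Which part of the transcript each probe covers was not analysed here.

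**Figure D2:**
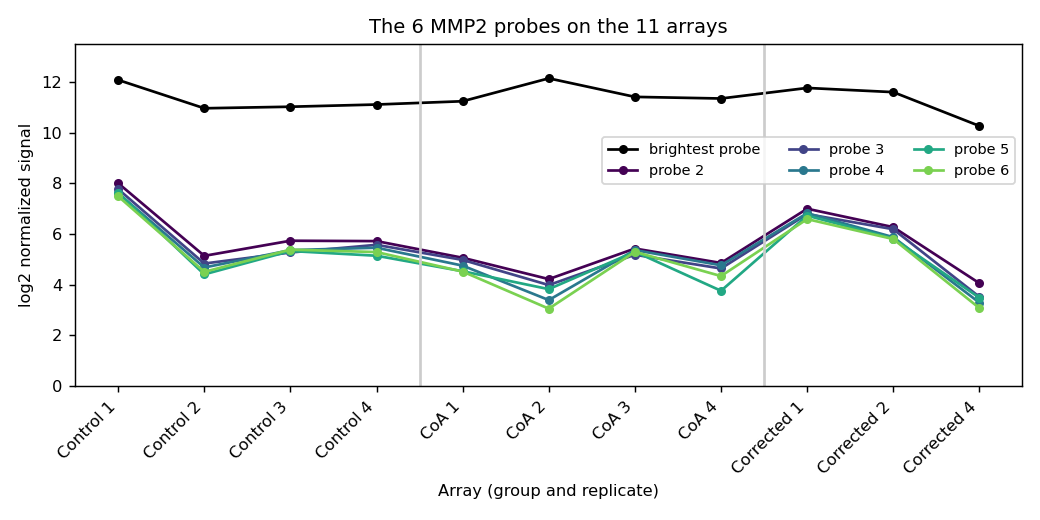
Log2 normalized signal (y axis) of the 6 MMP2 probes on the 11 arrays of the comparisons (x axis, group and replicate), each line a probe. The brightest probe stays between 10.27 and 12.14, while the dimmer ones move together between 3.06 and 8.01.

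MMP9, the other gelatinase and an enzyme stored in neutrophil granules, was detected on all 12 arrays. It stood at 4.42, 5.65, 5.41 and 5.66 in Control and at 4.51, 5.30, 5.32 and 5.46 in CoA. Corrected replicates 1, 2 and 4 had 6.55, 4.74 and 8.67. Control and CoA covered nearly the same range, and 2 of the 3 Corrected arrays lay above all others. The log2 fold change was -0.14 (95% interval -1.63 to 1.35) in CoA vs Control, 1.36 (-0.24 to 2.97, exact permutation p of 0.229) in Corrected vs Control and -1.50 (-3.11 to 0.10, exact permutation p of 0.20) in CoA vs Corrected. The Corrected value rested on replicate 4: without it the log2 fold change against Control was 0.36, and without replicate 2 it was 2.32 and passed the criterion. MMP9 also passed it in Corrected vs Control with all 12 arrays, at 1.48, and with scan as a random block, at 1.70. In CoA vs Corrected it passed without Corrected replicate 2, at -2.46, with all 12 arrays, at -1.62, with array weights, at -1.49, and with scan as a random block, at -1.58, and was -0.50 without Corrected replicate 4. Within scan 3, Corrected replicate 2 differed by -0.50 on the log2 scale from the mean of the Control arrays.

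The neutrophil markers were given by 5 of 11 listed genes, and none passed the criterion in any comparison. The log2 of their summed signal was 9.42 to 9.82 in Control, 9.17 to 10.38 in CoA and 8.71 to 13.79 in Corrected. On Corrected replicate 4, where MMP9 was highest, S100A9 and the granule peptide CAMP also had their highest values, 13.32 and 11.42. Among the 11 arrays CXCR2 and CYBB were highest there too, at 8.77 and 5.34. CXCR1 was not, at 9.48 against 10.07 on CoA replicate 2. The cytokines IL1B and IL6 were highest on Corrected replicate 4 as well, at 13.36 and 12.20. The part of neutrophils in the MMP9 values was not tested.

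MMP3, stromelysin 1, which cleaves proteoglycans and activates other proenzymes of the family, was near background throughout. Its brightest probe was detected on 7 of the 12 arrays. It read 1.68, 3.40, 1.83 and 3.45 in Control and 4.48, 5.31, 1.25 and 4.28 in CoA. Corrected replicates 1, 2 and 4 had 3.65, 4.21 and 3.76. The highest values were on 3 CoA arrays, and CoA replicate 3 was the lowest of all, so CoA spanned the whole range. The other MMP3 probes were detected on 4 and 0 arrays.

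MMP12, the macrophage elastase, had 1 probe, also detected on 7 of the 12 arrays. It read 6.37, 4.99, 1.83 and 3.30 in Control and 3.74, 3.31, 5.62 and 3.89 in CoA. In Corrected replicates 1, 2 and 4 it read 6.68, 2.55 and 5.59. High and low arrays occurred in all 3 groups. The spread between arrays of a group, with an SD of 1.98 in Control, was larger than the differences between the group means of 4.12, 4.14 and 4.94.

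MMP14, the membrane-bound enzyme that activates the MMP2 proenzyme at the cell surface, was detected on 2 arrays only, both Corrected. Its brightest probe lay between 1.22 and 1.32 in Control and read 1.23, 1.22, 2.94 and 1.36 in CoA. In Corrected replicates 1, 2 and 4 it read 4.56, 1.24 and 6.08. Corrected replicates 1 and 4 were thus above background and replicate 2 was not. Against a Control or CoA level that was not well above background, the mean of the Corrected group was at least 2.32-fold higher than in Control and at least 1.18-fold higher than in CoA. For this bound each Control or CoA array was set to the lowest signal among its probes well above background, or to the probe's own signal where that was higher. The undetected Corrected replicate 2 kept its own signal. Of the other 4 MMP14 probes, 1 was detected on Corrected replicate 1 alone and 3 on 0 arrays, so the probes did not give the same answer on Corrected replicate 4. For the probe detected on Corrected replicate 1 alone, the same bound was 1.02-fold against Control and 0.52-fold against CoA, so it set no difference from CoA.

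**Figure D3:**
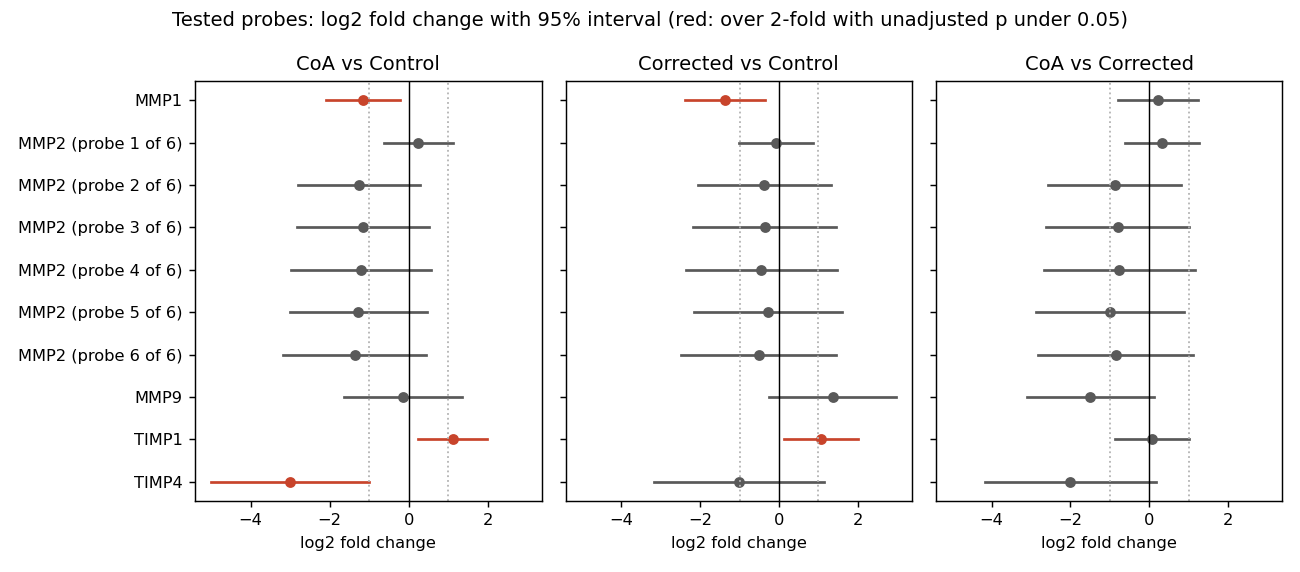
Log2 fold change (x axis) with its 95% interval from limma for the 10 tested probes (y axis), in the 3 comparisons. In CoA vs Control the brightest MMP2 probe sits at 0.24 and the 5 others between -1.36 and -1.17, and the probes past the 2-fold criterion (red) are MMP1, TIMP1 and TIMP4.

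Among the inhibitors, TIMP1, a secreted protein that many cells make in response to cytokines, was bright on every array. It stood at 12.74, 12.19, 11.70 and 11.53 in Control. In CoA it stood at 13.42, 13.25, 12.62 and 13.35, and in Corrected replicates 1, 2 and 4 at 14.05, 12.48 and 12.75. The operated groups were higher, but Control replicate 1 reached above the lowest CoA array and the lowest Corrected array. The log2 fold change was 1.12 (95% interval 0.25 to 1.99) in CoA vs Control, with p = 0.0164 and an adjusted p of 0.287 in limma and an exact permutation p of 0.0571. In Corrected vs Control it was 1.05 (0.11 to 1.99), with p = 0.0312 and an adjusted p of 0.565 in limma and an exact permutation p of 0.0857. Between CoA and Corrected it was 0.06 (-0.88 to 1.00), which leaves a difference of nearly 2-fold possible in either direction.

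TIMP1 lost its call in CoA vs Control without Control replicate 4, at 0.95, and when Control replicates 3 and 4 were averaged to 1 sample, at 0.98. The call in Corrected vs Control was lost without Control replicate 3, Control replicate 4 or Corrected replicate 1, at 0.94, 0.88 and 0.58. It was also lost with the replicate block, at 0.91, with Control replicates 3 and 4 as 1 sample, at 0.91, and at an unchanged 1.05 with only the 2 groups compared, with or without moderation. Within scan 3, Corrected replicate 2 was 0.33 above the mean of the Control arrays on the log2 scale, less than the spread of those arrays. Scan as a fixed block gave this same value, because only scan 3 holds both groups. The macrophage markers, of which 4 of 12 listed genes had a probe, are given beside it. The log2 of their summed signal was 10.8 to 12.7 in Control, 12.7 to 14.4 in CoA and 12.4 to 13.2 in Corrected. In the operated groups this sum was mostly osteopontin, which was at 14.37 beside a sum of 14.42 on CoA replicate 4. The brightest of the 4 was osteopontin (SPP1), also a matrix protein of other cells, called higher against Control by 2.86 in CoA and 1.95 in Corrected on the log2 scale. The log2 fold change of CD14 was 0.36 and 0.53, and that of MSR1 0.79 and -0.30. ACP5 was called lower in CoA, at -1.46, and was at -1.38 in Corrected without a call. The markers other than SPP1 thus did not move together. The part of macrophages in the TIMP1 result was not tested.

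TIMP4, an inhibitor known for a narrow tissue range with heart and fat among its sources, varied most of all the genes over the 11 arrays, with an SD of 1.90 on the log2 scale. It stood at 9.66, 7.99, 11.31 and 11.38 in Control. In CoA it stood at 5.6, 6.57, 8.58 and 7.54, and in Corrected replicates 1, 2 and 4 at 10.87, 8.13 and 8.24. CoA replicate 3 was above Control replicate 2, and the other CoA arrays were below every Control and Corrected array. The log2 fold change in CoA vs Control was -3.01 (95% interval -5.01 to -1.01), with p = 0.00686 and an adjusted p of 0.258 in limma and an exact permutation p of 0.0571. It was -1.01 (-3.17 to 1.15) in Corrected vs Control and -2.0 (-4.16 to 0.15, exact permutation p of 0.143) in CoA vs Corrected, and neither passed the criterion. The call in CoA vs Control held without each array in turn, with values from -3.71 to -2.52. Without single arrays, the value in Corrected vs Control ranged from -1.90 without Corrected replicate 1 to -0.53 without Corrected replicate 2, and was -2.20 with all 12 arrays. In CoA vs Corrected the call was gained without Control replicate 2 or CoA replicate 3, at -2.0 and -2.51, with the replicate block, at -2.46, and with scan as a random block, at -1.99. There it was -0.81 with all 12 arrays and -1.11 without Corrected replicate 1, in both cases without a call.

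Among 950 gene symbols outside these 10, those whose pattern over the 11 arrays was most like TIMP4 were ADIPOQ (Pearson's r of 0.969), CCT7 (0.939) and SLC1A5 (0.934). ADIPOQ encodes adiponectin, a hormone of fat cells, and was detected on 8 of the 12 arrays. It read 6.01, 4.94, 7.44 and 7.64 in Control and 1.45, 3.35, 5.89 and 3.36 in CoA. In Corrected replicates 1, 2 and 4 it read 7.27, 4.72 and 4.06. The arrays thus fell in nearly the same order for both genes, CoA replicate 1 lowest and Control replicates 3 and 4 highest. On the excluded Corrected replicate 3, TIMP4 was not detected (4.30), and ADIPOQ read 5.35.

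**Figure D4:**
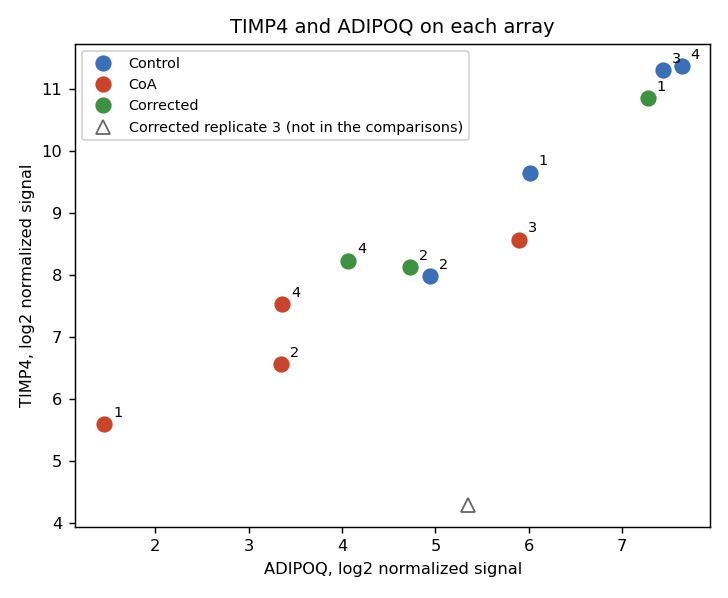
TIMP4 (y axis) against ADIPOQ (x axis), both as log2 normalized signal, 1 point per array with its replicate number. The 11 arrays of the comparisons lie along a rising line (Pearson's r of 0.969) from CoA replicate 1 to Control replicates 3 and 4, and Corrected replicate 3 lies off it.

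Of 10 adipocyte genes listed, 6 had a probe and 5 could be tested, and the log2 of their summed signal was 14.41 to 15.65 in Control, 13.63 to 14.96 in CoA and 13.97 to 16.02 in Corrected. ADIPOQ and PPARG, the transcription factor of fat cell differentiation, were called lower in CoA vs Control, at -2.99 and -3.17 on the log2 scale. LPL and RBP4 were at -1.49 and -1.05 without passing the test, and leptin was at 0.17. UCP1, the uncoupling protein of brown fat, was detected on 7 of the 12 arrays and was not tested. It was at -3.09 in CoA and at -2.49 in Corrected against Control, and leptin was at 0.26 in Corrected. PPARG was also called lower in Corrected vs Control, at -2.29. For cardiac muscle, the other tissue named above, 4 of 10 listed genes had a probe, and 2 were called higher in CoA and 1 in Corrected against Control. Over all tested probes, 3.59% and 2.41% were called higher. The log2 of the summed signal of these cardiac genes was 11.27 to 12.61 in Control, 13.15 to 16.66 in CoA and 12.95 to 14.20 in Corrected. CoA replicate 2 alone had 16.66, and CoA replicates 1, 3 and 4 had 13.45, 13.38 and 13.15. How much of the TIMP4 difference goes with the share of fat in the ring was not tested.

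MMP1 and TIMP1 were also set against each other within each array, a comparison chosen after the values were seen and given as a description. The difference MMP1 minus TIMP1 of the log2 signals was -5.35, -4.11, -3.28 and -3.90 in Control. It was -7.09, -6.00, -6.07 and -6.55 in CoA and -6.41, -6.90 and -6.40 in Corrected replicates 1, 2 and 4. All operated arrays of the comparisons were below all Control arrays, and CoA and Corrected overlapped. MMP1 was called lower and TIMP1 higher in both operated groups, so this separation follows in part from the choice of the pair. How many other pairs of genes separate in this way was not counted. Relative to Control, the mean of the difference changed by -2.27 in CoA and -2.41 in Corrected on the log2 scale. Because both comparisons share the Control arrays, they are not independent. Corrected replicate 3 was at -2.96, above the Control range, and with it in the Corrected group the change against Control was -1.51.

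**Figure D5:**
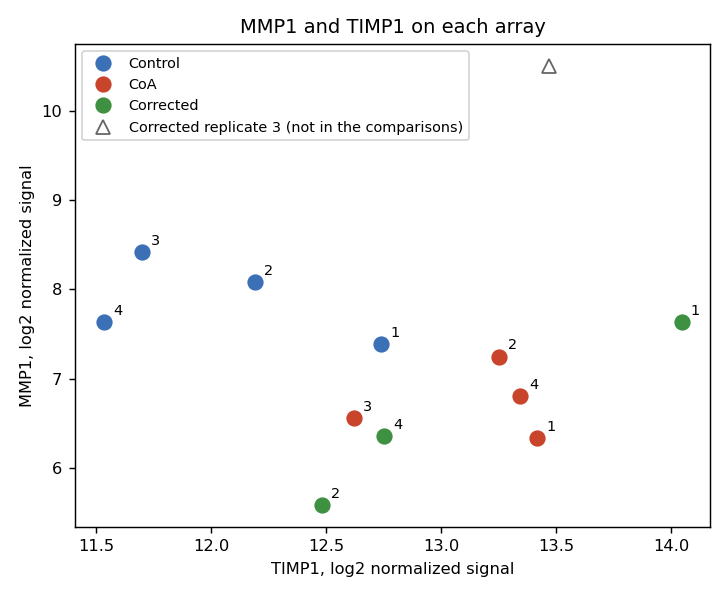
MMP1 (y axis) against TIMP1 (x axis), both as log2 normalized signal, 1 point per array with its replicate number. The Control arrays lie to the upper left of the CoA and Corrected arrays of the comparisons. Their differences MMP1 minus TIMP1 are -5.35 to -3.28, against -7.09 to -6.00 in CoA. Corrected replicate 3, outside the comparisons, lies above all other arrays.

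The patterns most like MMP14 over the 11 arrays, on most of which MMP14 was undetected, were those of FPR1 (Pearson's r of 0.933), STEAP2 (0.887) and HYPK (0.861). FPR1 encodes a formyl peptide receptor of neutrophils and other phagocytes. For MMP12 they were ACTMAP (0.695), OXCT1 (0.674) and MYH11 (0.656), all weaker likenesses. TIMP4, MMP14 and MMP12 were the genes for which likeness was computed because their SD over the arrays was largest.

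Other genes of the pathway were counted from 8 lists of 138 entries in all, of which 41 had a probe and 37 could be tested. In CoA vs Control 5 of the 37 were called higher and 2 lower, in Corrected vs Control 5 higher and 0 lower, and in CoA vs Corrected 0. The same criterion over all tested probes called 3.59% higher and 5.22% lower in CoA vs Control. In Corrected vs Control it called 2.41% and 2.98%, and in CoA vs Corrected 2.77% in either direction. These shares also stand beside the counts of the single lists below. Of the other metzincins and relatives, 0 of 27 genes could be matched to a probe by RefSeq accession, and probes named in other ways were not analysed here. Among other inhibitors (4 of 11 tested), TIMP3, the matrix-bound member, was at -0.05 in CoA and 0.19 in Corrected against Control. Cystatin C (CST3), an inhibitor of cysteine proteases, was called lower in CoA, at -1.20. The median log2 fold change of these inhibitors was -0.08 and -0.12, beside 0.06 and 0.03 over all probes.

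Some of the plasminogen system and other activators help to turn MMP proenzymes into active enzymes. Of this list, which also holds the coagulation gene F3, 4 of 11 genes were tested and 0 were called. Urokinase (PLAU) was at -0.35 and 0.46, and the median of the list was 0.50 and 0.51. Of the cathepsins, 2 of 9 were tested and 0 called. Among the matrix substrates, 8 of 28 were tested and SPP1 was the 1 gene called, higher in both comparisons with Control. The collagen chain COL1A2 was at -0.03 and -0.48, and the median of the list was -0.07 and -0.08.

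The list of cytokines, growth factors and receptors linked to the induction of these enzymes had 13 of 27 genes tested, among them the antagonist IL1RN. Its median log2 fold change was 0.48 in CoA and 0.71 in Corrected against Control. In CoA, interleukin 1 alpha (IL1A), hepatocyte growth factor (HGF) and the prostaglandin synthase PTGS2 were called higher, at 2.20, 1.65 and 1.00. In Corrected, HGF and PTGS2 were called higher, at 1.72 and 1.03. Of the 2 transcription factors tested, both parts of the AP-1 complex, JUN was called higher in CoA, at 1.39, and FOS in Corrected, at 2.08. Without a call, JUN was at 1.26 in Corrected and FOS at 1.35 in CoA, and CoA vs Corrected was at 0.13 for JUN and -0.73 for FOS. Among surface partners, BSG (EMMPRIN, a glycoprotein that induces MMPs in neighbouring cells) was called lower in CoA, at -2.13, and the integrin chain ITGB3 higher in Corrected, at 1.00. The adjusted p of every gene called in these lists was at least 0.217 in limma.

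The scaling, the other normalizations and the blocks left the directions of MMP1, TIMP1 and TIMP4 against Control as they were in every alternative run. In 1 alternative all 12 arrays were kept, and limma gave more weight to arrays that lie close to their group. All 3 genes then passed adjustment in CoA vs Control, and so did 11050 of the 27283 probes tested. Their adjusted p in limma was 0.00473 for MMP1, 0.000565 for TIMP1 and 0.000527 for TIMP4. The weighted log2 fold changes were -1.37, 1.56 and -4.17. Such weights can favour arrays that lie close together, as Control replicates 3 and 4 did over the tested probes of these genes. The weight that each array received was not examined, and its part in these values was not tested. These adjusted p are not taken as firmer support. The weighting alone brought the 3 genes under 0.05. Over all alternatives the adjusted p of MMP1 ranged from 0.00473 to 0.722. In Corrected vs Control the lowest adjusted p of these 3 genes over the alternatives was 0.104. Of the 5 genes, 0 were without overlap in CoA vs Corrected, as against 4.23% of all tested probes.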

How the data were processed

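One dye and 1 Agilent rabbit array per animal were used for 12 rabbits, 4 in each of Control, CoA and Corrected. The authors deposited the scanner output of each array from Feature Extraction by Agilent, whose version per the submitters' processing notes is 11.0.1.1. In it the processed signal is an intensity with the background already subtracted, not normalized between arrays. Dim intensities depend on that subtraction and on the floor set by the software. Spot and background median intensities and flags were taken from the same files. How many arrays a group had sets the precision. Of 43803 spots, 0 were saturated and 8 to 22 per array carried an outlier flag and were left out.

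Gene symbols came from RefSeq accessions matched to the gene table of assembly mOryCun1.1, which named 3368 of 43603 probes. From that table only names and the order of neighbouring genes were used, and no coordinates or sequences. The members and the lists were chosen with earlier results of these data known. All members with a probe were named with their levels, other genes only from the lists of pathway genes and cell type markers, and for likeness the 3 genes outside the list with the highest Pearson's r to each of the 3 most variable members. For each gene the probe of highest mean over the 11 arrays was used.

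Log2 processed signals of the 12 arrays were quantile normalized together, spots of a probe were averaged, and probes detected (positive and well above background) on at least 8 of 12 arrays were kept. The 11 arrays of the study were fitted in 1 two-sided model with no block, using limma 3.58.1 under R 4.3.3 and its moderation of the variances. The exact permutation test was two-sided on the difference of group means. Nothing in the labels ties replicates of different groups together, and p-values measure the spread between rabbits. Scripts were tested on simulated data. Alternatives were other sets of arrays, array weights, other scaling, normexp with an offset of 50 on the median intensities, other filters, tests and blocks (statmod 1.5.0), and leaving out each array. The lists for smooth muscle, endothelium, fibroblasts, B cells, skeletal muscle and housekeeping genes were used as checks of the tissue. Files were read and plots drawn in Python 3.11.15 (matplotlib 3.10.9, numpy 2.4.6, pandas 2.3.3). qRT-PCR and orthologues were not analysed here.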

Additional observations from a re-analysis of the deposited data

Results flagged for a closer look

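On Control replicate 1 the brightest MMP2 probe read 12.08, with the next Control array at 11.11, a gap of 0.868 of the whole Control range. On CoA replicate 1 MMP9 read 4.51, with the next CoA array at 5.30, a gap of 0.833 of the CoA range. Both gaps exceed Dixon's 95% critical value for 4 samples, in 20 groups of 4 arrays examined, and chance flags about 1 in 20 groups. On Corrected replicate 3, the array outside the comparisons, MMP1 read 10.51, MMP9 7.13 and TIMP1 13.47, above the highest Control arrays at 8.42, 5.66 and 12.74.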

How the results depend on the processing

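The number of genes called in CoA vs Control was 2 or 3 in all 24 alternatives. In Corrected vs Control it was 2 as reported and 1 with array weights, with normexp, with only the 2 groups compared, with the replicate block, with scan as a fixed block, with Control replicates 3 and 4 as 1 sample and with the mean over all probes of a gene, 0 without moderation, 3 with no detection filter (MMP14 added) and with scan as a random block (MMP9 added), and 1 to 2 without single arrays. With all 12 arrays it was 2, MMP9 and TIMP1. In CoA vs Corrected it was 0 as reported, 1 with all 12 arrays (with or without weights), with no detection filter and with the replicate block, 2 with scan as a random block, and 0 to 1 without single arrays. Replicate numbers did not pair the rabbits: same-numbered arrays of different groups had correlations of -0.44 to 0.45 in their deviations from the group means (10 pairs), and the block was used only as an alternative. The random block for scan had a correlation of -0.15. A negative value narrows the error of comparisons between scans, and CoA lay in a scan of its own. The calls of MMP9 and TIMP4 gained with this block are therefore not taken as firmer support. Scan as a fixed block gives no value for comparisons with CoA. In Corrected vs Control its fold changes rest on Corrected replicate 2 alone, against the Control arrays of the same scan. With detection on all 12 arrays TIMP4 was not tested.

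Signs turned in the following cases. MMP1 in CoA vs Corrected was -0.79 with all 12 arrays and -0.26 with weights, and TIMP1 -0.0296 and -0.00939. MMP2 in Corrected vs Control was 0.22 with weights, 0.0101 with the 75th percentile and 0.22 with scan as a fixed block, and in CoA vs Corrected -0.000686 with weights and -0.66 with the mean over probes, which gave -1.0 in CoA vs Control. MMP9 was -0.50 in Corrected vs Control with scan as a fixed block, against 1.36 as reported, and 0.12 in CoA vs Control with scan as a random block. Without single arrays, MMP9 in CoA vs Control ranged from -0.43 to 0.0753, MMP2 in Corrected vs Control from -0.36 to 0.39, and in CoA vs Corrected MMP1 from -0.26 to 0.77, MMP2 from -0.15 to 0.60 and TIMP1 from -0.24 to 0.54. The causes were not tested.

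Over all probes, 2404 were called in CoA vs Control, against 5210 with weights, 1020 with normexp, 3733 without a filter, 1278 with detection on all arrays, 1566 with the Control pair as 1 sample and 1544 to 3533 without single arrays. In Corrected vs Control 1471 were called, against 2851 with all 12 arrays, 2663 with weights, 584 with normexp, 2428 without a filter, 786 with detection on all arrays, 837 without moderation, 547 with scan fixed and 764 to 2404 without single arrays. In CoA vs Corrected 755 were called, against 1163, 1142, 129, 1461, 317 and 282 under the same settings, 1158 with the replicate block, 1206 with scan random and 642 to 1779 without single arrays. An adjusted p under 0.05 was reached by 11050 probes with weights and 869 with scan random in CoA vs Control, and by at most 21 in the other alternatives. Dim probes limit MMP3, MMP12, MMP13 and MMP14, which were not tested.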
